A study of Caenorhabditis elegans with 2 samples.

Results

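Of the 12996 candidate regions called on both replicates together, 1523 (11.7%, 95% Clopper-Pearson interval 11.2 to 12.3) had their point source, the single base that the deposited list marks within a region (here its middle), in an exon of a protein-coding gene and away from every promoter. A promoter was taken as the stretch from 1000 bp upstream to 200 bp downstream of any protein-coding transcript start in the Ensembl annotation of WBcel235, the assembly also called ce11. Regions that overlapped tRNA, rRNA, snRNA or snoRNA genes, 255 in all, were left out. The exonic regions lay in 1390 genes, which is 6.96% of the 19973 protein-coding genes. Of these genes 1279 held 1 exonic region, 96 held 2, and 15 held 3 or more.

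The lists came from chromatin immunoprecipitation and sequencing (ChIP-seq) of ALR-1 carrying an eGFP tag, in 2 biological replicates that form a single group. The worms were L2 larvae of both sexes, collected whole, of the Caenorhabditis elegans strain OP200 with the genotype unc-119(ed3) III; wgIs200, where wgIs200 is the integrated transgene that carries the tagged gene. Both replicates therefore share the unc-119 allele and the transgene, and the labels do not say which promoter or which cells express it. Since no second genotype or stage was profiled, the comparisons set exonic regions beside regions of other classes and the replicates beside each other. A candidate list holds peaks mixed with background regions, so a listed region need not be a binding site. Read depth is unknown, since the lists hold no read counts.

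ALR-1 is a paired-like homeodomain transcription factor related to Drosophila Aristaless, known in worms for roles in the fate of touch receptor, chemosensory and GABA motor neurons. Homeodomains of this class recognise short AT-rich sites with a TAAT core, and a pair of such proteins can bind a palindrome of that core. Transcription factor binding in C. elegans is mostly mapped to promoters close upstream of genes, while an exon is under the added constraint of the protein or transcript it encodes.

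The 100 bases around the point are printed for 2 sets of exonic regions, to show the sequence under strong regions and under regions with the homeodomain core. Both sets were limited to chromosomes II to V and X and to stretches with no UTR base, so stronger coding regions such as those in Y71G12B.31 and sue-1 are not shown. All are from the RefSeq copy of WBcel235 (ce11), 5′ to 3′ on the strand of the gene, with TAATTA in capitals. The first 4 are those of the 15 strongest exonic regions that pass these limits. They were found in both replicates and lie in pks-1, which encodes a polyketide synthase, acy-4, an adenylyl cyclase, the uncharacterised F14B8.5, and dpy-22, the MED12 subunit of the Mediator complex.
pks-1, chrX:5429438-5429537, plus strand: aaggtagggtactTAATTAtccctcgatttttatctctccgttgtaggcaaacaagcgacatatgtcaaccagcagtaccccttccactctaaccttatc
acy-4, chrV:5628203-5628302, minus strand: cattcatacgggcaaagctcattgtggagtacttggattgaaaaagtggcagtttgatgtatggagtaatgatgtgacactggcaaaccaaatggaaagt
F14B8.5, chrX:6926186-6926285, minus strand: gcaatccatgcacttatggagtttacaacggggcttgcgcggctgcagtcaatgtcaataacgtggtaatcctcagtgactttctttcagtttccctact
dpy-22, chrX:9814599-9814698, minus strand: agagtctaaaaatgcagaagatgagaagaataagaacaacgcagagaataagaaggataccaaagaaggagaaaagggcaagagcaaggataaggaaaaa
The other 4 are the strongest regions that pass the same limits and have TAATTA within these 100 bases, apart from pks-1, in csn-1 (a COP9 signalosome subunit), cyp-13A6 (a cytochrome P450), C06C3.3 and F35H10.10.
csn-1, chrV:17868881-17868980, minus strand: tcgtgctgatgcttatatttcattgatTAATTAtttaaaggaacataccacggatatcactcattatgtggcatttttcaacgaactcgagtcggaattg
cyp-13A6, chrII:9801965-9802064, minus strand: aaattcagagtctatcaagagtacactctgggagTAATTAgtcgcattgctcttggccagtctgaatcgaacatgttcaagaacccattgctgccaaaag
C06C3.3, chrII:9371138-9371237, minus strand: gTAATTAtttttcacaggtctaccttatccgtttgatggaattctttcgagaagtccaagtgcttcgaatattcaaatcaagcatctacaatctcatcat
F35H10.10, chrIV:8311007-8311106, minus strand: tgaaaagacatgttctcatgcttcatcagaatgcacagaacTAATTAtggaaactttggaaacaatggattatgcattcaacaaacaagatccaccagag
The pks-1 stretch is 56% coding, and its TAATTA lay outside the coding bases. The C06C3.3 stretch is 83% coding, and its TAATTA lay outside the coding bases too. In csn-1, cyp-13A6 and F35H10.10 all 6 bases of TAATTA were coding. Neither acy-4, F14B8.5 nor dpy-22 had a TAATTA in the 100 bases, and 83% of the dpy-22 bases were purines on the coding strand, against 61% in acy-4.

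Exons held fewer candidates than their share of the genome, and the shortfall was deepest among strong regions. Exonic sequence outside promoters made up 21.7% of the genome, against the 11.7% of candidate regions. Introns held 20.9% of the regions in 27.1% of the genome, promoters 39.7% in 26.1%, and intergenic sequence 25.7% in 25.1%. Regions were then ranked by the deposited signal value, the scale of which the authors do not state. At the top of the pooled list, over as many regions as the list thresholded for reproducibility holds, 1 was exonic (0.971%, interval 0.0246 to 5.29). Over the 1000 regions that end at rank 2000 the exonic share was 2.40% (1.54 to 3.55), and among the weakest 4996 regions it was 18.4% (17.4 to 19.5). The median signal of exonic regions was 3.10 (quartiles 2.78 and 3.89), against 3.84 in introns, 4.35 in promoters and 3.99 in intergenic sequence. Of the exonic regions, 1124 lay in the weaker part of the list, below its median signal, and 19 were among the first 1000. Near the floor, 1586 regions had a signal that rounds to 2.783, and these made up 27.2% of the exonic regions against 10.4% of the 11218 regions of the other 3 classes, called all other regions here.

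The lists of the single replicates gave the same order with unlike levels. In replicate 1, 758 of 5071 regions were exonic (14.9%, 13.98 to 15.96). In replicate 2, 506 of 7568 were (6.69%, 6.13 to 7.27). The share of intronic regions was 20.02% in replicate 1 and 20.01% in replicate 2. In the same number of top regions, 3 were exonic in replicate 1 and 1 in replicate 2. Among the weakest 1071 regions of replicate 1 the exonic share was 18.95%, and among the weakest 3568 of replicate 2 it was 9.70%. The exonic share thus differed between replicates by more than the counting intervals, in lists whose regions were 390 bp wide in replicate 1 and 304 bp wide in replicate 2. The part of list length and region width in this difference was not tested.

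**Figure D1:**
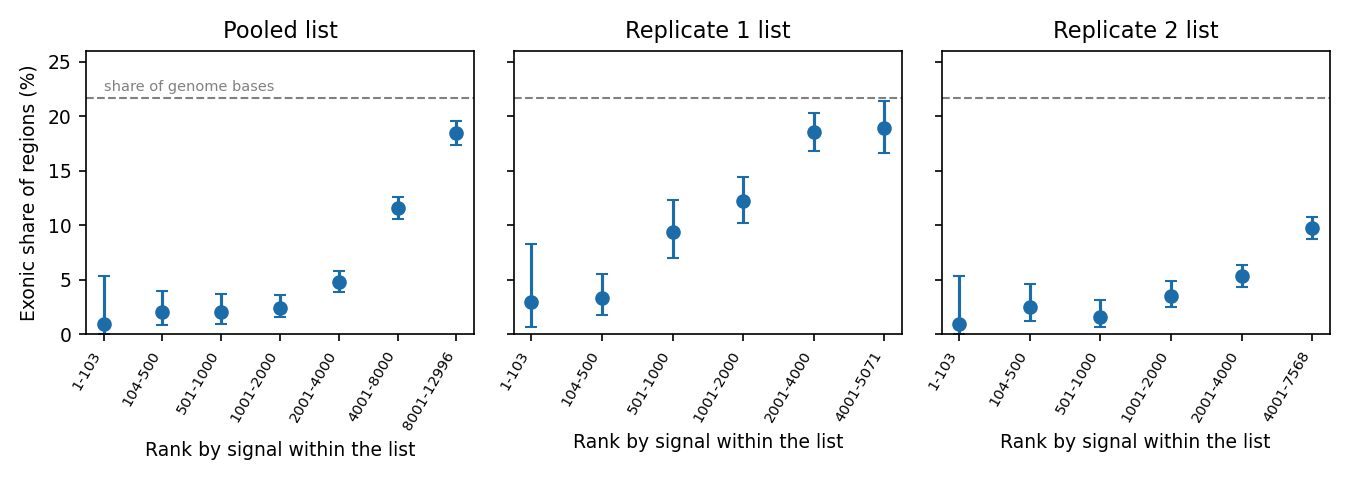
Exonic share of regions (%, y axis) in bins of rank by signal (x axis) for the pooled list and each replicate list. Points are shares, bars are exact 95% intervals, and the dashed line is the 21.7% of genome bases that are exonic outside promoters. The share is lowest among the strongest regions in every list, and reaches 18.95% in replicate 1 but 9.70% in replicate 2.

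Few exonic regions recurred in both replicates. A pooled region was counted as found in a replicate when it shared at least 1 bp with a region of that replicate's list. Of the 1523 exonic regions, 52 were found in both (3.41%, 2.56 to 4.45), against a background of 13.3% over all pooled regions. The share in both was 11.8% in introns, 16.2% in promoters and 13.6% in intergenic sequence. Replicate 1 held 437 exonic regions (28.7%), close to its background of 30.9%. Replicate 2 held 373 (24.5%), against its background of 48.6%. A region in replicate 1 alone was found for 385 exonic regions (25.3%) and in replicate 2 alone for 321 (21.1%), while 765 (50.2%) were found in neither. Over all other regions these 3 shares were 16.6%, 37.1% and 31.9%. Within the replicate lists, 62 of the 758 exonic regions of replicate 1 met a region of replicate 2 (8.18%), against 32.5% of all replicate 1 regions. In the other direction, 51 of the 506 exonic regions of replicate 2 met one of replicate 1 (10.1%), against 21.8% of all replicate 2 regions.

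Part of this low recurrence went with low signal. Exonic regions with a pooled signal between 10 and 50 were found in both replicates in 14 of 20 cases (70%, 45.7 to 88.1), against 64.2% of intronic, 58.3% of promoter and 60.4% of intergenic regions of that signal. Between 6 and 10 the share was 22.9% (16 of 70, interval 13.7 to 34.4), against 31.0% in introns, 30.7% in promoters and 26.4% in intergenic sequence. Between 4 and 6 it was 6.30% (3.64 to 10.03), against 9.67% in introns, 9.97% in promoters and 8.19% in intergenic sequence. Between 3 and 4 it was 0.881% (0.241 to 2.24), against 3.77% in introns and 3.71% in intergenic sequence. Between 2.5 and 3, where 725 of the exonic regions lay, it was 0.276% (0.0334 to 0.993) against 1.015% in introns and 2.20% in intergenic sequence. In each band from a signal of 4 upward the exonic interval thus covered the shares of the other classes. In the bands from 3 to 4 and from 2.5 to 3 it lay below the intervals of promoter regions, whose shares were 3.75% (2.76 to 4.97) and 1.94% (1.22 to 2.92). The exonic interval lay below those of intergenic regions in these bands as well (2.55 to 5.19 and 1.31 to 3.45). Against introns it lay below from 3 to 4 (2.48 to 5.47) but overlapped from 2.5 to 3 (0.465 to 1.92).

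**Figure D2:**
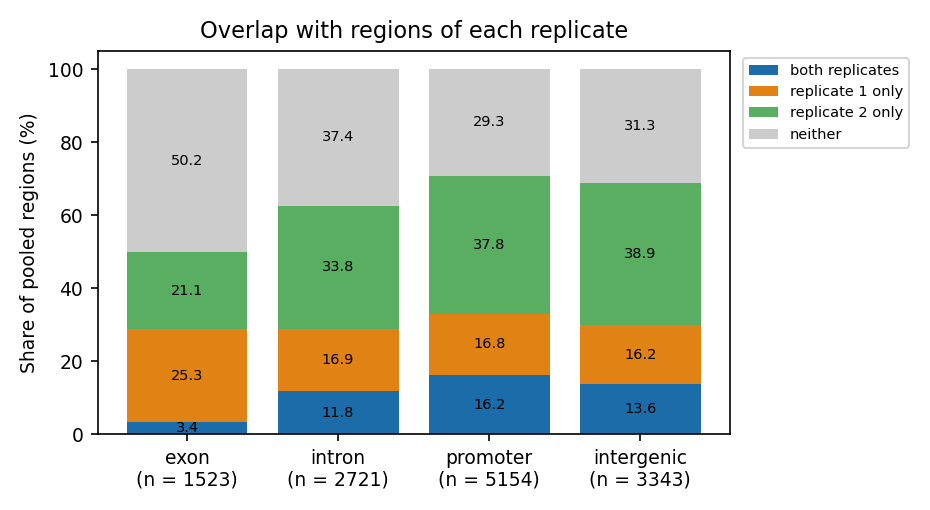
Share of pooled regions (%, y axis) found in both replicates, in 1 of them or in neither, for 1523 exonic, 2721 intronic, 5154 promoter and 3343 intergenic regions. The exonic bar has the smallest part found in both, 3.41%, and the largest found in neither, 50.2%.

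The optimal IDR list holds regions that pass a threshold on the irreproducible discovery rate, which compares the order of regions between replicates. It overlapped 0.931% of all pooled regions and 1 exonic region. That region, in pks-1 at chrX:5429328-5429647, was the strongest of the exonic regions, with a pooled signal of 29.6 at rank 19 of the list. It matched rank 32 of replicate 1, with a signal of 11.6, and rank 34 of replicate 2, with a signal of 18.1. The product of pks-1 is a very large polyketide synthase made in the CAN neurons, which takes part in the synthesis of nemamides. The point lay in exon 22 of 30, 3 bp from the exon's edge, in a gene of the plus strand at chrX:5413810-5441961. Of the 320 bp of the region, 86.3% were exonic. The next pks-1 region, 521 bp away, had a signal of 3.70 and was found in neither replicate, and its other 2 exonic regions had signals of 2.99 and 2.61.

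The strongest exonic regions lay in genes of varied function, and the 10 strongest were all found in both replicates. In dmd-7, which encodes a DM-domain transcription factor, the region chrV:6247405-6247724 had a pooled signal of 18.3 and ranked 188 in replicate 1 and 335 in replicate 2. In rsbp-1, which anchors regulators of G protein signalling, the region chrI:9076114-9076433 had a signal of 17.9, with ranks of 892 in replicate 1 and 201 in replicate 2. The Y71G12B.31 region, chrI:1691320-1691639, had a signal of 16.7 and ranked 40 in replicate 1 but 757 in replicate 2. F21C10.3 followed with a signal of 15.7, fbxl-1, an F-box protein with leucine-rich repeats, with 14.4, acy-4 with 14.3, F22D3.4 with 14.2, sue-1 with 13.9 and F14B8.5 with 13.3. These 10 genes hold the 10 strongest exonic regions found in both. F14B8.5 was uneven, ranking 374 in replicate 2 and 4074 of 5071 in replicate 1. The acy-4 region, chrV:5628093-5628412 in exon 9 of 19, was even, with a rank of 783 in replicate 1 and 819 in replicate 2. In dpy-22 the region chrX:9814489-9814808 lay wholly in exon 13 of 19, with a signal of 12.6, a rank of 666 in replicate 1 and a rank of 984 in replicate 2. It was 6755 bp from the next candidate and was the only candidate in the gene or the 1000 bp upstream of it, as was the region of acy-4.

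The 4 of the 15 strongest regions that were not found in both were all from replicate 2. They were C05D11.8 with a pooled signal of 12.9, din-1, a corepressor that binds the nuclear receptor DAF-12, with 12.7, Y57G11C.38 with 12.5 and scm-1, a secretory carrier membrane protein, with 12.4. The Y57G11C.38 region had a signal of 13.8 in replicate 2 and no overlap in replicate 1. Of the 50 strongest exonic regions, 23 were found in both, 9 in replicate 1 alone, 16 in replicate 2 alone and 2 in neither.

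By part of the transcript, 5′ UTR points were few, with a higher median signal and a higher share found in both replicates than coding or 3′ UTR points. Of the exonic points, 1219 were coding (80.04%, 77.9 to 82.02), against 87.6% of all exonic bases outside promoters. Another 249 were in 3′ UTRs (16.3%, 14.5 to 18.3), against 10.8% of bases. The 5′ UTRs held 46 (3.02%, 2.22 to 4.01), against 1.26% of bases, and 9 points were in exons of non-coding transcripts of coding genes. The 5′ UTR regions had a median signal of 3.85, near the 3.89 of all pooled regions, against 2.99 in coding sequence and 3.53 in 3′ UTRs. In 5′ UTRs 9 of 46 were found in both replicates (19.6%) and 13 in neither, in coding sequence 34 of 1219 (2.79%), and in 3′ UTRs 8 of 249 (3.21%). Of the 15 strongest exonic regions, 6 were in 5′ UTRs, in dmd-7, rsbp-1, F21C10.3, fbxl-1, F22D3.4 and din-1. The exons under these points were long. The first exon of dmd-7 spanned 2360 bases, that of rsbp-1 2743, that of fbxl-1 2160, that of F22D3.4 1730 and that of the din-1 transcript 2066. Each of these points lay downstream of its nearest start, by 634 bp in dmd-7, 1051 bp in rsbp-1, 815 bp in fbxl-1, 844 bp in F22D3.4 and 773 bp in din-1. No check of these annotated starts against transcript data was made.

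**Figure D3:**
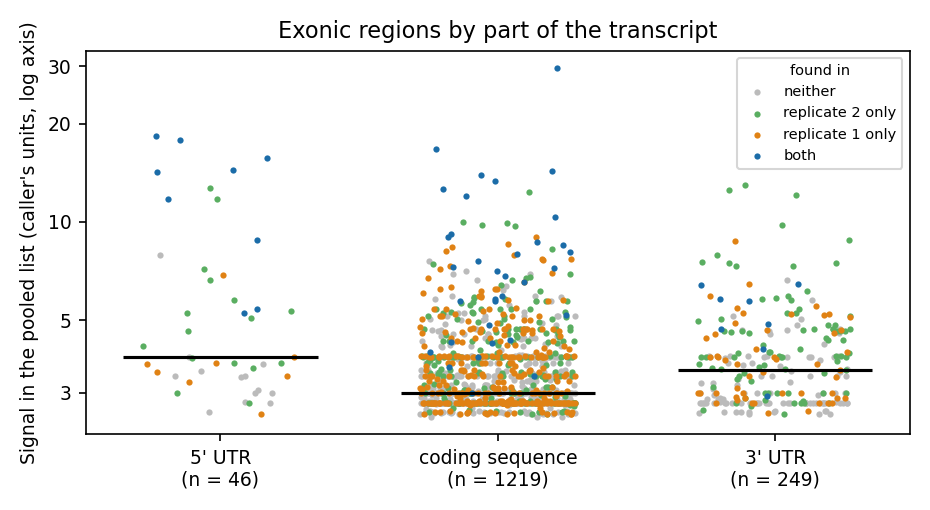
Pooled signal (y axis, log scale, units of the authors' caller) of exonic regions whose point lies in a 5′ UTR, coding sequence or 3′ UTR. Each point is a region coloured by the replicates in which it was found, and black bars are medians, 3.85 in 5′ UTRs, 2.99 in coding sequence and 3.53 in 3′ UTRs. Above a signal of 10 most points are from regions found in both.

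Median signals on either side of the promoter limit were close. The 86 exonic regions 201 to 300 bp downstream of their nearest start had a median signal of 3.37, and 9 of them (10.5%) were found in both replicates. The 211 exonic points in the last 100 bp inside that limit, which count as promoter, had a median signal of 3.70, and 12.3% were found in both. On the upstream side, 16 exonic points at 1001 to 1100 bp had a median signal of 3.24, against 3.25 for 25 exonic points at 901 to 1000 bp, and 2 of the 16 (12.5%) were found in both, against 1 of the 25 (4%).

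Exonic regions from replicate 1 alone and from replicate 2 alone differed in where they lay in genes. The 321 of replicate 2 alone were coding in 67.6% of cases (62.2 to 72.7) and in 3′ UTRs in 26.5% (21.7 to 31.7). The 385 of replicate 1 alone were coding in 84.4% (80.4 to 87.9) and in 3′ UTRs in 13.2% (10.02 to 17.05). Along the gene from start to end, 32.4% of replicate 2 points fell in the last 10% of the span and 18.4% of replicate 1 points did, against 16.8% of all exonic bases outside promoters. Last exons held 42.1% of the points of replicate 2 alone and 28.3% of those of replicate 1 alone, against 23.3% of bases. Exons of at least 500 bp held 29.6% of replicate 2 points and 45.2% of replicate 1 points, against 32.4% of bases. Points found in neither replicate followed the exonic bases more closely, with 15.9% in the last 10% of the span and 23.5% in last exons.

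**Figure D4:**
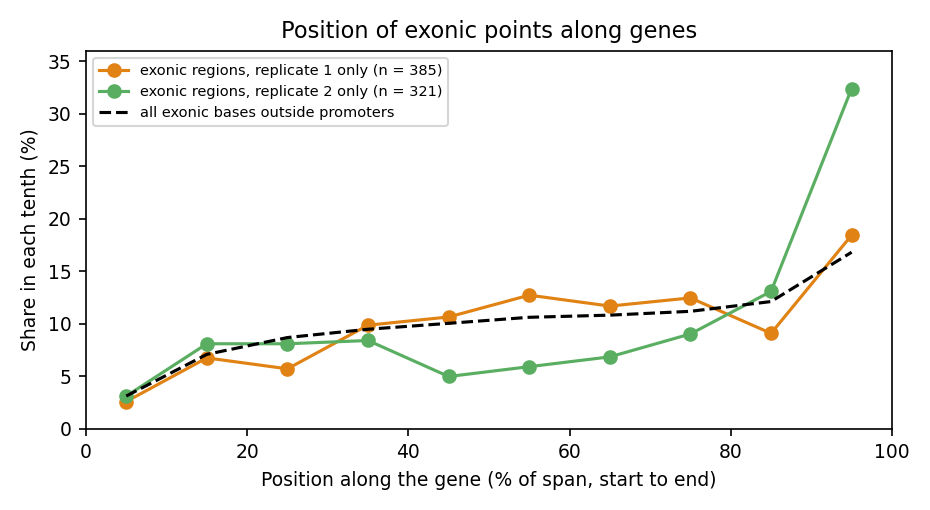
Share of exonic points (%, y axis) in each 10% of the gene span from start to end (x axis), for 385 regions found in replicate 1 alone and 321 in replicate 2 alone. The dashed line gives all exonic bases outside promoters. The green line of replicate 2 reaches 32.4% in the last 10%, where replicate 1 has 18.4% and the bases 16.8%.

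Some chaperone genes named hsp held strong exonic regions in replicate 1 alone, among them the highest-ranked replicate 1 region whose own point was exonic. Chaperone genes with other names were not part of this count. They were chosen after their values were seen. The region chrIV:17280561-17280880 in exon 3 of 4 of hsp-1, the constitutive Hsp70 chaperone, ranked 39 in replicate 1 with a signal of 11.2, had a pooled signal of 8.39 and had no overlap in replicate 2. The region chrIII:8444558-8444877 in exon 5 of 6 of hsp-110, a nucleotide exchange factor for Hsp70, ranked 44 in replicate 1 with a signal of 10.95, had a pooled signal of 8.53 and likewise had no overlap in replicate 2. Of 22 genes whose name begins with hsp, 4 held exonic regions, 7 in all, and each of the 7 was coding and found in replicate 1 alone. Over all protein-coding genes 6.96% held an exonic region. Over all exonic regions 80.04% were coding and 25.3% were found in replicate 1 alone. The other 5 regions were 1 more in hsp-1 (pooled signal 3.06), 2 in hsp-70 (6.32 and 6.25) and 2 in hsp-90 (4.74 and 3.88). Their GC content was between 41.3% and 52.2%. In the replicates' own lists, 11 of the 758 exonic regions of replicate 1 and 1 of the 506 of replicate 2 lay in these genes. Promoter candidates of the same genes were mixed. The hsp-90 promoter region, 288 bp upstream of a start, had a pooled signal of 20.7 and was found in both replicates at rank 96 of replicate 1 and rank 415 of replicate 2. The hsp-110 promoter region, with a pooled signal of 11.4, was found in both as well, and the region 381 bp upstream of hsp-1, with a pooled signal of 9.64, was in replicate 2 alone. Weaker promoter candidates of hsp-1 (5.11) and hsp-90 (3.89) were in replicate 1 alone.

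In replicate 1 alone, the strongest exonic regions by pooled signal were vhp-1, a MAP kinase phosphatase (8.96, rank 777 of replicate 1), and the 3′ UTR of egl-45, an eIF3 subunit (8.77, rank 833). In replicate 2 alone, ceh-13, the worm labial Hox gene, had a 3′ UTR region at chrIII:7557865-7558184 with a pooled signal of 12.1 and rank 721 of replicate 2. Its other candidate, 861 bp upstream of its start, had a pooled signal of 9.80 and was found in both replicates. These 3 genes were also picked after their values were seen.

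**Figure D5:**
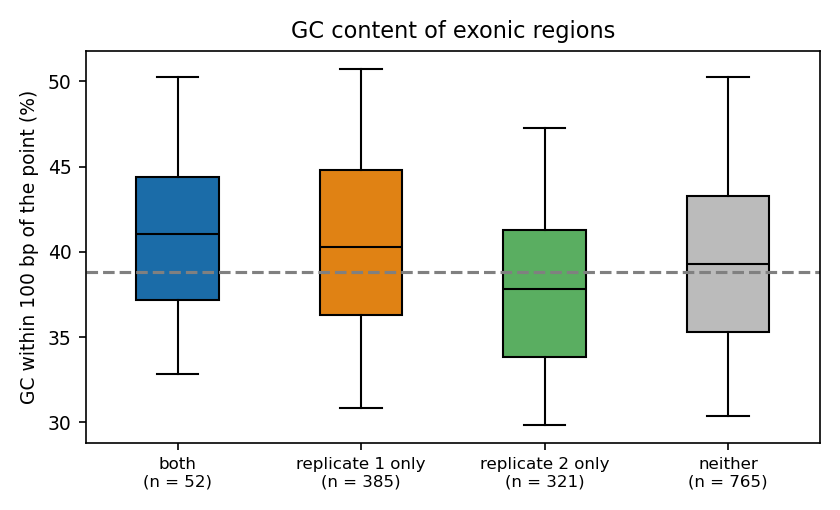
GC content within 100 bp of the point (%, y axis) of exonic regions found in both replicates, in replicate 1 alone, in replicate 2 alone or in neither. Boxes are quartiles with the median, whiskers reach the 5th and 95th percentiles, and the dashed line is the 38.8% median over all exonic bases outside promoters. The medians are 41.04%, 40.3%, 37.8% and 39.3% in that order.

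Base composition moved with the replicate. Over exonic regions the median share of G and C within 100 bp was 39.3% (quartiles 35.3 and 43.3), against 38.8% over all exonic bases outside promoters and 37.8% over all other regions. It was 40.3% in exonic regions of replicate 1 alone and 37.8% in those of replicate 2 alone. Below 35% GC, 28.8% of exonic regions were found in replicate 2 alone and 19.1% in replicate 1 alone. At 50% GC or more, 8.64% were found in replicate 2 alone and 35.8% in replicate 1 alone. Promoter regions over the same bands had 39.6% and then 31.4% in replicate 2 alone, and 14.8% and then 17.1% in replicate 1 alone. The share found in both was 2.15% below 35% GC and 6.17% (5 of 81) at 50% or more in exons, against 10.8% and 33.1% in promoters. Coding and UTR points also differ in GC, with medians of 39.8% in coding sequence, 40.5% in 5′ UTRs and 33.8% in 3′ UTRs, so position in the gene and GC cannot be told apart here by these counts.

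By gene group, exonic regions were spread thinly, and most groups were mainly of weak regions. Over all protein-coding genes 6.96% held an exonic region, and over all exonic regions 3.41% were found in both replicates, 25.3% in replicate 1 alone and 21.1% in replicate 2 alone. None of the 82 ribosomal protein genes did, and 5 of 71 genes for translation factors and tRNA synthetases did, with 6 regions of which 5 were from replicate 1 alone. Muscle genes for the sarcomere and its attachment had exonic regions in 14 of 65, the 21 regions being found in both in 0 cases, in replicate 1 alone in 11 and in replicate 2 alone in 2. Among them was ttn-1, the worm titin, whose 5 exonic regions were the most in any gene, with signals from 2.78 to 3.86 in a gene spanning chrV:6120909-6202632. Heat shock and stress genes had 13 of 153 with 16 regions, 8 of them in replicate 1 alone. Of these 8, 7 were the regions of hsp genes already described, so the count is not separate from theirs. Panneuronal and synaptic genes had 20 of 71 with 25 regions, and 1 of these, in the kinesin gene unc-104, was found in both (pooled signal 5.71, rank 4388 in replicate 1 and 4565 in replicate 2). Axon guidance and adhesion genes had 21 of 110, ion channels and neurotransmitter receptors 33 of 286, and neuropeptides and insulin-like genes 5 of 145. Chemoreceptors had 40 of 1310 and F-box and BTB families 14 of 465. Of all protein-coding genes with any candidate in the gene body, 34.5% held an exonic region. On that base the share was 44.4% for panneuronal and synaptic, 34.4% for axon guidance and 30.3% for ion channel genes. For neuropeptides it was 22.7%, for muscle 51.9%, for chemoreceptors 49.4% and for F-box and BTB genes 35.9%. For heat shock genes it was 36.1% and for translation genes 27.8%. Long genes offer more exonic bases, and these shares were not scaled to gene length.

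Regions in genes of transcriptional regulators are set beside the 3.41% found in both, 25.3% in replicate 1 alone and 21.1% in replicate 2 alone over all exonic regions. Of genes with any candidate in the gene body, 34.5% held an exonic region. That share was 21.9% for homeobox genes, 30.2% for other transcription factors and 40.5% for chromatin regulators. Homeobox genes had exonic regions in 7 genes (6.80% of the list), with 10 regions of which 2 were found in both, 1 in replicate 1 alone, 5 in replicate 2 alone and 2 in neither. Both of the recurrent ones were in unc-62, which encodes a Meis-family homeodomain cofactor of Hox proteins. The stronger, chrV:4507852-4508171, had a pooled signal of 8.79 and ranked 478 in replicate 1 and 287 in replicate 2. The weaker, chrV:4505508-4505827, had a signal of 5.41 and ranked 1304 in replicate 1 and 4012 in replicate 2. All 4 exonic regions of unc-62 were in 5′ UTRs. Another, with a signal of 7.92 at 202 bp downstream of a start, was found in neither replicate, and the fourth, with 3.67, met the same replicate 1 region as its neighbour. A promoter region of unc-62 with a signal of 9.13 was found in both replicates as well. Other transcription factor families had exonic regions in 39 of 457 genes, with dmd-7 and egl-27, a homologue of the MTA chromatin proteins, found in both. The egl-27 region had a signal of 4.33. Chromatin regulators had 15 of 137 genes, and 1 of their 16 regions, in lin-59, which encodes an Ash1-like histone methyltransferase, was found in both (7.07, rank 2437 in replicate 1 and 1936 in replicate 2). Also found in both were zyg-9, a microtubule regulator of the XMAP215 family (6.52), and the chemoreceptor gene srj-19 (3.86). Named after their values were seen, the 52 regions found in both also included lin-42, the worm Period homologue (12.03, rank 2341 in replicate 1 and 1036 in replicate 2), and mdl-1, a Mad-like bHLH factor (10.4, rank 529 in replicate 1 and 1682 in replicate 2).

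Several genes held clusters of exonic regions, in which neighbours could share bases or a replicate region. Neighbouring exonic regions shared bases in 16 pairs. The glyoxylate cycle gene icl-1 held 4, of which the strongest, with a pooled signal of 6.82, was found in both, at rank 886 of replicate 1 and near the end of replicate 2, at rank 7476 of 7568. That replicate 1 region was also the match of a candidate classed as promoter, with a pooled signal of 7.31 and found in replicate 1 alone. Another 2 exonic regions of icl-1, with signals of 5.14 and 3.44, overlapped a single region of replicate 1 at rank 178. A region 60 bp upstream of an icl-1 start had a signal of 7.18 and was found in both replicates. The P-type ATPase gene catp-8 held 4 exonic regions with signals of 2.61 to 4.30, of which 1 was found in replicate 1 alone and 3 in neither. The cyclic nucleotide phosphodiesterase gene pde-2 also held 4, with signals of 2.82 to 3.58, and is named after its values were seen.

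The alr-1 gene itself held 4 candidates in its body, of which 1 was exonic. This region, chrX:11125178-11125497 in exon 2 of 6, had a signal of 5.31 and was found in replicate 2 alone at rank 4675. Its 3 intronic neighbours had signals of 8.52, 4.94 and 4.90, and 2 of them were found in both replicates. The transgene carries alr-1, so reads from its copies and from the native gene cannot be told apart in these lists. Among touch receptor neuron genes, in which ALR-1 is known to act, 4 of 36 held exonic regions (11.1%, against 6.96% of all genes). Of the 17 with any candidate in the gene body, the 4 made up 23.5%, against 34.5% over all genes with a candidate. The alr-1 gene itself is 1 of the 4. Of the 7 exonic regions in these 4 genes none was found in both, where the share over all exonic regions was 3.41%. In mec-10, a DEG/ENaC channel subunit, the region chrX:8468673-8468992 in exon 5 of 17 had a signal of 9.80 and was found in replicate 2 alone at rank 750, while a promoter region with a signal of 8.80 was found in both. In mec-4, the partner subunit, 2 exonic regions with signals of 5.46 and 2.92 met the same replicate 1 region at rank 1646, and the promoter region with a signal of 6.86 was in replicate 2 alone. Both mec genes were picked after their values were seen.

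The homeodomain core was no more frequent at exonic points than in exons at large. TAATTA, which is its own reverse complement, was searched within 100 bp of the point. It was present at 95 of 1523 exonic regions (6.24%, 5.08 to 7.57), against 7.97% of all pooled regions, 8.29% of all other regions and 6.55% of all windows centred on exonic bases outside promoters. The palindrome TAATNNNATTA, which does not contain TAATTA unless the spacer bases supply it, was present at 10 exonic regions (0.657%, 0.315 to 1.20), against 0.945% of all other regions and 0.794% of exonic windows. Of the 52 exonic regions found in both replicates, 4 had TAATTA (7.69%, 2.14 to 18.5), in pks-1, sue-1, adal-1 and T28F4.5. The share was 8.72% (5.87 to 12.4) in replicate 2 alone, 3.12% (1.62 to 5.38) in replicate 1 alone and 6.67% in neither. Over the regions of all 4 classes it was 8.71% in replicate 2 alone, 6.89% in replicate 1 alone, 8.76% in neither and 5.94% in both. Median GC content of the exonic regions was 37.8% in replicate 2 alone, 40.3% in replicate 1 alone, 39.3% in neither and 41.04% in both. The part of GC content in these shares was not tested. In 3′ UTRs TAATTA was at 10.4% of regions, against 5.41% in coding sequence.

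Exonic regions also stood further from other candidates. The median distance to the next candidate was 2423 bp for exonic regions, against 1704 bp for all other regions. For the 52 found in both it was 1139 bp, close to the 1119 bp over the regions of all 4 classes found in both. The X chromosome held 324 exonic regions (21.3%, 19.2 to 23.4), against 16.3% of exonic bases outside promoters and 24.2% of all other regions. Of the 52 found in both, 17 were on X (32.7%, 20.3 to 47.1), against 26.2% over the regions of all 4 classes found in both. On chromosome IV there was 1 of the 52 (1.92%, 0.0487 to 10.3). That chromosome held 15.5% of exonic bases outside promoters and 14.8% of all other regions. Regions whose central 50 bases recur in the genome numbered 2 among exonic regions (0.131%), against 0.758% of all other regions.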

How the data were processed

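Peak lists of 2 biological replicates of ALR-1 ChIP-seq were analysed on the build ce11, as 1 list per replicate, 1 list called on both together and 1 optimal IDR list. Per the labels, the lists were deposited on ce10 also, and those were not used here. Which aligner, which caller and what IDR threshold were used is not given in the sources used here. A control library was not analysed here. Every region in the deposited lists carries a signal value, of a scale the authors do not state, and a −log10 q-value, which in the pooled list of the authors reaches a ceiling of 2.90 shared by 402 regions, 5 of them exonic. Of the 1523 exonic regions 90 had a −log10 q-value over 1. The same count was not made over all pooled regions, so these 90 have no background here. Ranks therefore follow signal, ties in file order, and signals are compared within a list only. All pooled regions are 320 bp wide, and p-values were not computed.

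Points were classed with Ensembl release 115 (19973 protein-coding and 1107 small RNA genes on 6 chromosomes) in the order promoter, exon, intron, intergenic. All other regions means the 11218 that were neither exonic nor at small RNA genes. A point in exons of several genes, of which there were 9, was given to the longest. Overlaps needed 1 bp. Shares have 95% Clopper-Pearson intervals, which cover counting error only and treat regions as independent. Depth, and so the precision it would give, is unknown. With 1 group no test between conditions could be made. Members and the 20 gene lists were chosen with earlier results of these data known. Genes named were those of the 15 strongest exonic regions, of the IDR overlap, of the 10 strongest found in both, the 5 with most regions, alr-1, and up to 4 per list found in both. The sequences shown follow a rule of their own, given beside them. Others are said to be chosen after their values were seen, apart from adal-1 and T28F4.5, which complete the list of TAATTA regions found in both. The classification and overlap code was tested on simulated data. Tables were made in Python 3.11.15 with pandas 2.3.3 and numpy 2.4.6, intervals with scipy 1.17.1 and plots with matplotlib 3.10.9. Other promoter limits, exon definitions, windows and overlaps were tried, and each replicate was left out in turn.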

Additional observations from a re-analysis of the deposited data

How the results depend on the processing

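No paired analysis was possible because both samples belong to a single group. Where values moved, the alternative's own construction changed the regions or bases counted, and no further cause was tested. The exonic share of 11.7% was 14.4% with promoters from 500 bp upstream to 100 bp downstream, 9.26% with promoters from 2000 bp upstream, 9.38% for coding exons alone and 6.12% in the stronger part of the list above its median signal. It was 6.69% without replicate 1 and 14.9% without replicate 2. The share found in both replicates was 11.8% in that stronger part and 2.04% when an overlap of at least 50% was asked, and the share found in a single replicate whatever the other showed was 24.5% to 28.7%. Coding points made up 71.1% in the stronger part and 68.97% to 85.1% over single replicates. The last of 3 equal parts of the gene held 47.8% of points, against 43.7% of exonic bases outside promoters under the main setting. That last part held 44.2% with the short promoter, 38.6% of coding points and 51.5% in the stronger part. It held 37.95% with distance along exons, and 41.95% to 54.2% over single replicates. TAATTA was at 3.15% within 50 bp, 16.6% within 250 bp and 5.80% to 8.50% over single replicates. Median GC was 39.8% for coding exons, 40.6% within 50 bp, 38.1% within 250 bp and 37.8% to 40.3% over single replicates. The median signal percentile of 29.5 was 27.2 for coding exons, 64.3 in the stronger part and 32.2 to 39.5 over single replicates. The IDR overlap stayed within its interval under every alternative run. Regions with a unique central 50 bases, an alternative chosen after seeing the data, gave values within the intervals of the main ones. Unknown depth, 2 replicates, and lists that mix peaks with background limit every share here.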

Other observations

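Exonic points that fell inside promoters were not members, but give the values nearest to them. There were 1055 such points, with a median pooled signal of 3.82, and 11.2% were found in both replicates. Annotated non-coding genes other than the small RNA classes lay under 12 exonic regions (0.788%), against 5.73% of all other regions. Of the exonic regions, 463 (30.4%) were exonic over their whole length, and for the median region 84.1% of the bases were exonic.

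The cuticle collagens, short genes rich in G and C, held exonic regions in 8 of 181 genes, with a median GC content of 57.96% and a median signal of 2.78. Of these 8 regions, 3 were found in replicate 1 alone, 1 in replicate 2 alone and none in both. Basement membrane and extracellular matrix genes held them in 9 of 36, vitellogenin and intestinal genes in 18 of 475, germline and oogenesis genes in 15 of 204, cytoskeletal genes in 17 of 118 and histone genes in 1 of 81. Of all genes with any candidate in the gene body, 34.5% held an exonic region. That share was 40% for collagen, 52.9% for basement membrane and 32.7% for vitellogenin and intestinal genes. For germline genes it was 39.5%, for cytoskeletal genes 34.7% and for histone genes 20%.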
